A study of Saccharomyces pastorianus with 12 samples.

Results

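The last days of a lager beer fermentation, sampled at 192, 240 and 264 h, were compared with the days before them, sampled at 120, 144 and 168 h, across all genes measured. These 6 samples were taken by their labelled times from the 12 of the series. All 12 came from a production-scale fermentation with lager brewing yeast (Saccharomyces pastorianus), a hybrid with an S. cerevisiae parent, and all were total RNA. Each time had 1 array, so the 3 times of a window stand in for replicates. The spread within a window therefore holds real change between its times as well as array noise. The labels do not give a strain, a wort, a temperature or a number of fermentations, and all 6 samples may come from 1 vessel, so the p-values speak for these samples.

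Lager yeast meets oxygen mainly at the start of a batch and then works without it. Several steps of ergosterol synthesis, and the desaturation of fatty acids, need molecular oxygen, so membrane lipid made early is shared out among the daughter cells. As fermentable sugar runs out, growth slows and the cells approach a resting state. In laboratory S. cerevisiae that state is known for little ribosome synthesis and for stores of glycogen and trehalose.

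A level below is a gene's log2 signal minus the median log2 signal of its array, and a difference is the mean level at 192 to 264 h minus that at 120 to 168 h. Levels of different genes are not set against each other, since each probe has its own brightness. Gene names are those of S. cerevisiae; copies from the other parent were not resolved. Because RNA came from whole samples, a lower level in every cell and a loss of the transcript from some cells cannot be told apart.

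The late arrays had the narrower signal. The standard deviation of the levels over all genes was 0.880, 0.665 and 0.862 at 192, 240 and 264 h, against 1.10, 1.03 and 1.27 at 120, 144 and 168 h. It averaged 0.803 ± 0.119 log2 units in the late window and 1.13 ± 0.120 in the earlier one (SD, n = 3 each), without overlap (exact permutation test, two-sided, p = 0.1, the smallest that 3 arrays against 3 allow). Spearman correlations across genes ran from 0.162 to 0.441 within the late window and from 0.726 to 0.842 within the earlier one, and the 240 h array had a median of 0.252 with the other 5. Across the windows the 264 h array reached 0.652 with 120 h, against 0.275 with 192 h, and the 192 h array 0.647 with 144 h, so some late arrays were nearer to earlier ones than to each other. Brightness moved with the result. The 143 brightest rows, with a mean level above 2, all had a negative difference, with a median of -1.76, while the 334 dimmest, at -1 or below, had a median of 0.39. Quantile normalization, which gives every array the same distribution, moved these medians to -0.55 and 0.25. The part of the narrower signal in the differences below was not tested. Differences are median centred unless the quantile-normalized value is named.

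**Figure D1:**
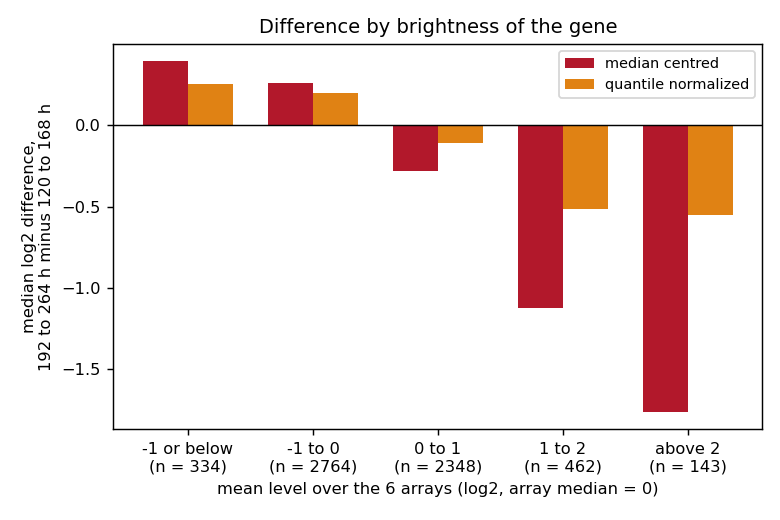
Median log2 difference (192 to 264 h minus 120 to 168 h) of genes in 5 classes of mean level over the 6 arrays (log2, array median at 0), as bars for median-centred and quantile-normalized values. The median falls with brightness in both scalings, to -1.76 and -0.55 in the brightest class.

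In median-centred values 156 of 6051 rows (5490 named genes and 561 unnamed probes) passed an adjusted p of 0.05 in limma, 2.58% of those tested. Of these, 147 fell (2.43%; 135 named) and 9 rose (0.149%; 8 named). By mean level, 1.32% of rows at 0 to 1 fell, 13.0% at 1 to 2 and 39.2% above 2. Of all rows, passing or not, 3163 (52.3%) were lower and 2888 higher. Counts in the gene lists below are to be read beside these shares. At an unadjusted p under 0.05 there were 847 lower and 388 higher rows, against 302.55 in all expected by chance. After quantile normalization 0 rows passed (0%), with a smallest adjusted p of 0.327 and 407 lower and 304 higher rows at an unadjusted p under 0.05. A linear model without moderation also called 0 in either scaling.

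Of the 147 rows that fell, 146 had the same sign after quantile normalization, and in 122 the windows did not overlap there either. The exception in sign was RPI1, named after its values were seen, at -1.96 median centred and 0.07 quantile normalized. All 147 lay above the array median in mean level. In 79 of them every late array lay below each of the other 9 arrays of the series, which 3.54% of all rows did. The number of calls depended on single arrays, while the differences stayed near. Without the 168 h array or without the 240 h array 0 rows passed, without 120 h 2 did (RPL26B and an unnamed probe), and without 144, 192 or 264 h 55, 222 and 364 did. Whichever array was left out, all 156 stayed within 1.5 times their difference. Their sign could not change, since the windows of all 147 and all 9 did not overlap in median-centred values. These rows were chosen on the same arrays, so this is no independent evidence.

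Ergosterol genes had the lowest median of the 50 gene lists examined. Of 25 measured, 24 were lower at 192 to 264 h and 12 passed, against 52.3% and 2.43% of all rows. Their median difference was -1.80 (3.49-fold lower), beside -0.04 for all rows, and -1.13 after quantile normalization, beside 0.02. In 13 of the 25 the windows did not overlap in either scaling, against 9.9% of all rows. The list is bright, with a median mean level of 1.65. Of the 462 rows at 1 to 2 in mean level 456 were lower and 13.0% fell, with a median difference of -1.12, or -0.52 quantile normalized. All of the 12 that passed but ERG10, ERG6 and CYB5 had a mean level above 2. Of the 143 rows there all were lower and 39.2% fell, with a median of -1.76, or -0.55 quantile normalized. The median level of the list was 1.09, 0.03 and 0.99 at 192, 240 and 264 h, against 3.36, 2.38 and 2.37 at 120, 144 and 168 h. At 240 h only 14 of the 25 were above the array median, whereas all 25 were on each of the 3 earlier arrays.

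**Figure D2:**
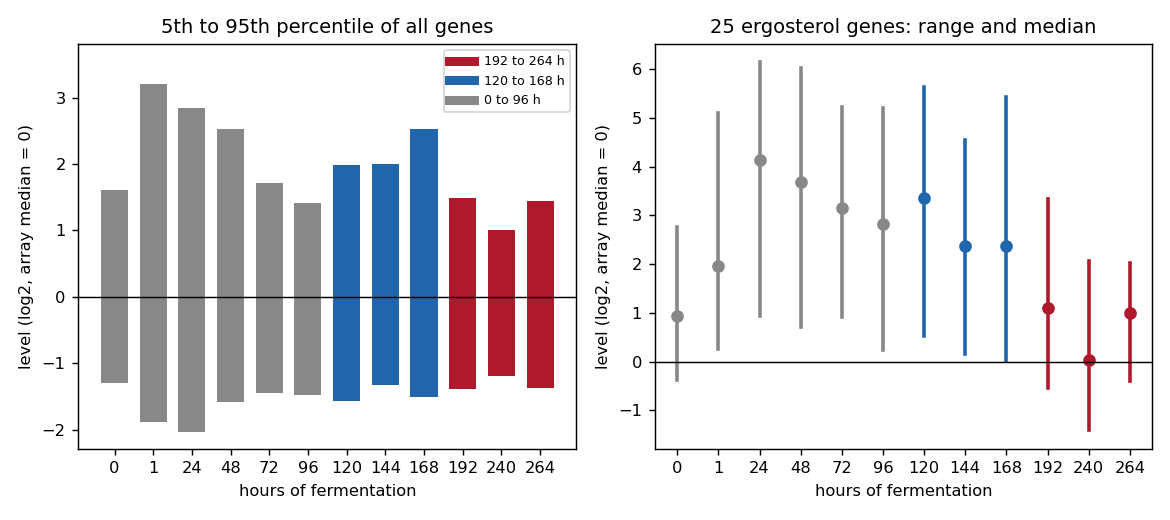
Left, the 5th to 95th percentile of the levels of all genes on each of the 12 arrays. Right, the range (line) and median (point) of the 25 ergosterol genes, by hours of fermentation (levels in log2 units, array median at 0); the median reaches 0.03 at 240 h.

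ERG11, the lanosterol demethylase, had levels of 2.38, 0.33 and 1.04 at 192, 240 and 264 h, against 5.64, 4.42 and 5.21 at 120, 144 and 168 h. It fell 14.3-fold (log2 difference -3.84, SE 0.52; limma adjusted p = 0.00959), the largest median-centred difference of all, and stood at -2.65 after quantile normalization, where ERG5 was larger. ERG5, a desaturase near the end of the pathway, had 2.35, 0.03 and 0.58 in the late window, against 5.40, 4.40 and 4.47 in the earlier one. Its difference was -3.77 (SE 0.55; adjusted p = 0.0110), and -2.68 quantile normalized. ERG1, the squalene epoxidase and the pathway's entry into oxygen-dependent chemistry, had 1.84, 0.72 and 0.64, against 4.75, 3.77 and 4.37, a difference of -3.23 (SE 0.44; adjusted p = 0.00959), and -2.03 quantile normalized. In all 3 genes every late array was below all 9 others.

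The other 9 that fell were ERG10 and 8 genes from ERG9 onward. At the start of the route ERG10, the thiolase that joins acetyl units, fell by 1.92 (-1.20 quantile normalized). At the branch to sterols, ERG9, the squalene synthase, had 1.44, 0.37 and 0.97 at 192 to 264 h, against 4.14, 3.19 and 4.13 at 120 to 168 h, a difference of -2.89 (limma adjusted p = 0.0110; -1.91 quantile normalized). Of the complex that strips methyl groups from the sterol ring, ERG25, ERG26 and the scaffold ERG28 fell by 2.92, 2.22 and 2.99 log2 units. ERG6, the methyltransferase, fell by 2.31, the isomerase ERG2 by 1.86, the desaturase ERG3 by 2.93, and CYB5, a cytochrome that hands electrons to sterol enzymes, by 2.10. After quantile normalization ERG26, ERG28, ERG6, ERG3 and CYB5 stood at -1.31, -1.96, -1.59, -2.03 and -1.43, ERG25 at -0.99 (0.061 without the 264 h array) and ERG2 at -0.64, and the windows of ERG25, ERG6 and ERG2 overlapped there.

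The genes of the mevalonate route between ERG10 and ERG9 did not pass. ERG13, HMG1, ERG12, ERG8, MVD1, IDI1 and ERG20 had differences from -1.80 (ERG13, adjusted p = 0.0559) to -0.68 (ERG12), and from -1.39 (IDI1) to -0.62 (ERG12) quantile normalized. HMG2, the second gene of the HMG-CoA reductase, was the 1 ergosterol gene with a positive difference, with 0.86, 0.23 and 0.29 at 192 to 264 h, against 0.52, 0.15 and 0.01 at 120 to 168 h (0.23; adjusted p = 0.765). Its windows overlapped. HMG1, its paralogue, had 0.31, 0.22 and 1.17, against 2.89, 1.07 and 1.17, a difference of -1.15 that did not pass either (adjusted p = 0.226). ERG7, ERG24, ERG27, ERG4 and NCP1, the reductase partner of ERG11, differed by -0.74, -0.63, -0.78, -0.84 and -1.63 without passing.

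**Figure D3:**
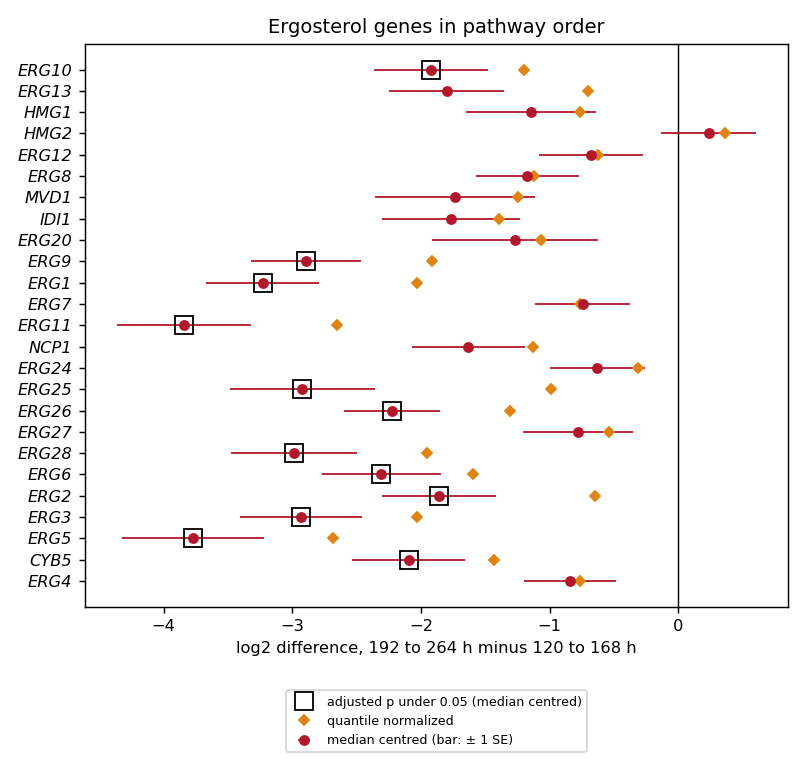
Log2 differences (192 to 264 h minus 120 to 168 h) of the 25 ergosterol genes in approximate pathway order, median centred with 1 SE and quantile normalized; squares mark the 12 genes past an adjusted p of 0.05. HMG2 alone lies above 0, at 0.23.

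With labelled hours as a number over the 6 arrays, 3 rows passed (0.0496%), and all 3 were sterol genes. ERG5 fell by 0.92 log2 units per day (SE 0.115; limma adjusted p = 0.0105), ERG11 by 0.89 (SE 0.133; adjusted p = 0.0335) and ERG1 by 0.75 (SE 0.115; adjusted p = 0.0335). This fit uses the same arrays as the windows and is no independent evidence. After quantile normalization 0 passed (ERG5 and ERG11, adjusted p = 0.0924), and without the 120 h array 0 did in median-centred values. Without 144, 192 or 240 h 1 row passed each time, without 168 h 5 did and without 264 h 32.

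Of 17 fatty acid synthesis genes 2 fell, against 2.43% of all rows. OLE1, the only fatty acid desaturase of S. cerevisiae, had 5.11, 2.27 and 3.82 at 192, 240 and 264 h, against 6.85, 6.33 and 7.55 at 120, 144 and 168 h. It fell 9.04-fold (log2 difference -3.18, SE 0.61; limma adjusted p = 0.0317), and stood at -0.90 quantile normalized, where it did not pass. MGA2, the membrane-bound activator of OLE1, had 0.52, -0.61 and -0.01, against 2.15, 1.93 and 2.64, a difference of -2.27 (adjusted p = 0.0246), and -1.85 quantile normalized. The list had a median of -0.07. Of 19 phospholipid and inositol genes 0 passed (median -0.30). Outside that list NEM1, of a phosphatase complex that controls phospholipid synthesis, fell by 2.29 (-1.67 quantile normalized). In fatty acid oxidation POT1, the peroxisomal thiolase, alone of 37 genes fell, by 1.98 (-1.61 quantile normalized), while the list median was 0.14.

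In sulfur metabolism 2 of 36 genes fell, both of the methyl cycle, against 2.43% of all rows. SAM2, which makes S-adenosylmethionine, the methyl donor used by ERG6 among others, had 2.20, 1.03 and 1.39 at 192, 240 and 264 h, against 4.81, 3.79 and 4.81 at 120, 144 and 168 h (difference -2.93, SE 0.44; limma adjusted p = 0.0116; -1.54 quantile normalized). SAH1, which clears the product of methyl transfer, had 1.34, 0.40 and 0.63, against 3.59, 3.14 and 3.55 (difference -2.64, SE 0.39; adjusted p = 0.0110; -1.74 quantile normalized). Neither gene's windows overlapped. MET6, the methionine synthase, differed by -1.52 (adjusted p = 0.0526; -1.08 quantile normalized). Over the 36 sulfur and methionine genes the median was 0.12, and MET3, the first enzyme of sulfate use, had 0.23, 0.92 and -0.68, against -0.84, -0.74 and -0.83, a difference of 0.96 that did not pass (1.09 quantile normalized).

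Genes of protein synthesis are given by role. Of 132 ribosomal protein genes 121 were lower and 12 fell, against 52.3% and 2.43% of all rows. Their median was -0.78 (1.72-fold lower) and -0.56 after quantile normalization. In 52 of them (39.4%) the windows did not overlap in either scaling, downward, against 9.9% of all rows, and in 38 every late array lay below the other 9, against 3.54% of all rows. The list had a median mean level of 0.63, and rows at 0 to 1 had a median difference of -0.28. RPL26B, of the large subunit, had 1.41, 1.39 and 1.97 at 192, 240 and 264 h, against 4.38, 5.16 and 5.32 at 120, 144 and 168 h. Its fall of 3.36 log2 units (10.3-fold; SE 0.39) had the smallest adjusted p of the comparison, 0.00814 in limma, and stood at -1.55 quantile normalized. RPL37B, RPS6B and the stalk gene RPP1A fell by 2.30, 2.19 and 2.16, and stood at -1.76, -1.92 and -1.73 quantile normalized. Paired ribosomal protein genes are near-identical and can share signal.

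Translation factors had 4 of 39 members that fell, against 2.43% of all rows, and a median of -0.35. HYP2 and ANB1, the aerobic and hypoxic genes of translation factor eIF5A, both fell. HYP2 had 2.52, 0.91 and 1.05 at 192 to 264 h, against 4.60, 4.07 and 4.73 at 120 to 168 h (difference -2.97; adjusted p = 0.0153; -1.62 quantile normalized), and ANB1 differed by -2.49 (-1.33 quantile normalized). The 2 are similar in sequence, so their probes may share signal. TEF2, of elongation factor EF-1A, differed by -2.46 but by -0.27 after quantile normalization, and by 0.031 there without the 264 h array. In ribosome biogenesis, the making of new ribosomes, 47 of 109 genes were lower, 0 passed and the median was 0.10, with 0.09 quantile normalized. RNA polymerase I and III subunits and aminoacyl-tRNA synthetases had medians of 0.12 and 0.04 and 0 calls.

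Glycolysis and ethanol formation had a median of -1.27 (2.41-fold lower), but of -0.32 after quantile normalization. Of 21 genes 19 were lower and 8 fell, against 52.3% and 2.43% of all rows. The list too is bright, with a median mean level of 1.93. Rows at 1 to 2 had a median difference of -1.12 (-0.52 quantile normalized), with 456 of 462 lower, and 13.0% fell. Above 2 all 143 rows were lower and 39.2% fell. Whether the list held more calls than rows of like brightness was not tested. TDH3, a glyceraldehyde phosphate dehydrogenase, had 3.05, 1.37 and 2.63 at 192, 240 and 264 h, against 4.32, 4.44 and 5.21 at 120, 144 and 168 h, a difference of -2.31 (limma adjusted p = 0.0328) and -0.46 quantile normalized. Its paralogue TDH1 stood at -2.27 and -0.11 in the same order of scalings, and the enolase ENO1 at -2.15 and -0.42. FBA1, the aldolase, and PDC1, the pyruvate decarboxylase, stood at -1.94 and -1.81 median centred and -1.07 and -1.26 quantile normalized. PDC1 had 0.64, -0.28 and 1.30, against 2.28, 2.41 and 2.40. ADH1, the main fermentative alcohol dehydrogenase, differed by -1.17 without passing (-0.37 quantile normalized).

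Sugar uptake genes held few calls. Of 20 hexose transporter genes 16 were lower (median -0.90, and -0.22 quantile normalized), against 52.3% of all rows. Their median mean level was 0.82, and rows at 0 to 1 had 1617 of 2348 lower. HXT12 alone passed, at -2.05 (-1.52 quantile normalized), in a family whose probes can share signal. HXT6, a high-affinity transporter, had 2.84, 0.91 and 2.18, against 3.33, 3.80 and 5.25, and its difference of -2.15 did not pass (adjusted p = 0.0636; -0.63 quantile normalized). HXT3 and HXT5 differed by -1.61 and -1.43 (-0.82 and -0.61 quantile normalized). Among 13 maltose genes the maltase MAL32 and the isomaltase IMA3 fell by 2.02 and 1.94 (-1.12 and -1.33 quantile normalized). Of all rows 2.43% fell. The list had a median of -0.93, of -0.49 quantile normalized, and of -0.61 without the 240 h and -0.45 without the 264 h array. MAL32 had 2.26, 0.54 and 0.91 at 192 to 264 h, against 3.42, 3.15 and 3.20 at 120 to 168 h.

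Respiratory chain genes had a median of -1.26 (-0.68 quantile normalized). Of 35 measured, 33 were lower and 4 fell, against 52.3% and 2.43% of all rows. Their median mean level was 0.71. Rows at 0 to 1 had 1617 of 2348 lower and a median of -0.28 (-0.11 quantile normalized), and 1.32% fell. CYC1, the aerobic cytochrome c, had 1.36, 0.64 and 1.52 at 192, 240 and 264 h, against 3.63, 3.47 and 3.64 at 120, 144 and 168 h (difference -2.40, SE 0.38; limma adjusted p = 0.0153; -1.32 quantile normalized). Its hypoxic counterpart CYC7 also fell, by 2.30, but stood at -0.34 after quantile normalization, and at 0.020 there without the 264 h array. COX6, of cytochrome oxidase, differed by -1.96 (adjusted p = 0.0560; -1.71 quantile normalized). In the citric acid cycle 13 of 16 were lower, with a median of -0.55 (-0.38 quantile normalized, and -0.36 without the 240 h array) and 0 calls, LPD1 at -1.46. Of 20 glyoxylate and gluconeogenesis genes 13 were lower and 2 fell, against 52.3% and 2.43% of all rows. That list had a median of -0.71, but of -0.31 quantile normalized. Median centred, it was -0.29 without the 264 h and -0.30 without the 168 h array. CIT2 and MDH3, both peroxisomal enzymes, fell by 1.97 and 1.84 (-1.21 and -1.29 quantile normalized).

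Antioxidant genes had a median of -0.82 (-0.42 quantile normalized). Of 33 members 27 were lower and 4 fell, against 52.3% and 2.43% of all rows. Their median mean level was 0.72. Rows at 0 to 1 had 1617 of 2348 lower and a median of -0.28 (-0.11 quantile normalized), and 1.32% fell. The thiol peroxidase TSA1 had 1.76, 0.48 and 1.81 at 192, 240 and 264 h, against 4.57, 3.42 and 3.68 at 120, 144 and 168 h, and fell by 2.54 (SE 0.46; limma adjusted p = 0.0267). The superoxide dismutases SOD1, of the cytosol, and SOD2, of mitochondria, fell by 2.19 and 2.29, and the catalase CTT1 by 1.89. After quantile normalization these 4 differed by -1.10 to -1.37.

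Hypoxic and cell surface genes held further calls. Of 25 hypoxic and anaerobic genes 6 fell, against 2.43% of all rows, among them OLE1, ANB1, CYC7 and the cell wall mannoproteins TIR1 and TIR3. The list had a median of -0.78 (-0.31 quantile normalized) at a median mean level of 0.83, beside -0.28 for rows at 0 to 1. TIR1 had 3.67, 1.80 and 3.29 at 192 to 264 h, against 5.42, 5.16 and 6.0 at 120 to 168 h, a difference of -2.61 (adjusted p = 0.0309) and -0.59 quantile normalized. All 23 seripauperin genes, a near-identical family induced without oxygen, had negative differences, from -1.95 to -0.32 with a median of -1.07 (-0.55 quantile normalized). PAU13, PAU15 and PAU24 passed, 3 of 23, against 2.43% of all rows. The family had a median mean level of 1.19. Rows at 1 to 2 had a median of -1.12 (-0.52 quantile normalized), with 456 of 462 lower, and 13.0% fell. Probes of the family can share signal and are not 23 separate measurements. Of 45 cell wall genes 27 were lower and 2 fell, against 52.3% and 2.43% of all rows. CWP2 and CCW12 fell by 2.39 and 2.20, and stood at -0.98 and -0.85 quantile normalized, where the windows of CWP2 overlapped. That list had a median of -0.26, but 23 members lower and a median of -0.004 after quantile normalization.

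Of 7 flocculation genes, which make cells clump and settle, 5 were lower and 1 fell, against 52.3% and 2.43% of all rows. The other 2 were higher. The list had a median of -1.27, but of -0.19 after quantile normalization. FLO5 had 0.78, 0.25 and 0.94 at 192 to 264 h, against 2.45, 2.32 and 3.13 at 120 to 168 h, and fell by 1.98 (adjusted p = 0.0322; -1.32 quantile normalized). FLO1 and FLO9 differed by -1.50 and -1.30 without passing (-0.96 and -1.21 quantile normalized). The 3 are close relatives whose probes can share signal.

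Zinc, proline and amino acid genes gave single large decreases. Of 13 zinc genes 9 were lower and 2 fell, against 52.3% and 2.43% of all rows (median -0.46, and -0.27 quantile normalized). Of 33 nitrogen-repressed genes 18 were lower and 2 fell (median -0.07 in both scalings). Of 64 amino acid synthesis genes 37 were lower and 1 fell (median -0.14, and 0.006 quantile normalized). Of 20 aroma ester and fusel genes 15 were lower and 2 fell (median -0.38, and -0.34 quantile normalized). IZH1, a membrane protein gene tied to zinc balance, had 3.26, 0.67 and 1.99 at 192, 240 and 264 h, against 4.94, 4.64 and 5.92 at 120, 144 and 168 h, and fell 9.16-fold (log2 difference -3.20, SE 0.58; limma adjusted p = 0.0267; -1.59 quantile normalized). ZRT1, the high-affinity zinc transporter, fell by 2.72 (-1.60 quantile normalized). PUT2, of proline breakdown, fell by 2.21 (-1.80 quantile normalized), and PUT1, which acts before it, differed by -2.09 (adjusted p = 0.0532). DAL81, a regulator of nitrogen breakdown genes, fell by 2.0 (-1.51 quantile normalized). In aroma formation BAT1, the mitochondrial branched-chain transaminase, and EEB1, which makes ethyl esters, fell by 1.72 and 1.92 (-1.41 and -0.89 quantile normalized), and ARO10, a decarboxylase of the fusel route, differed by -1.51 (adjusted p = 0.0692).

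The proteasome had 31 of 35 genes lower, against 52.3% of all rows, and a median of -0.70 (-0.53 quantile normalized), but 0 passed. Its genes had a median mean level of 0.56. Rows at 0 to 1 had 1617 of 2348 lower and a median of -0.28 (-0.11 quantile normalized). In 12 of the 35 the windows did not overlap in either scaling, downward, against 9.9% of all rows. Its activator RPN4 had 0.92, -0.68 and 0.18 at 192 to 264 h, against 1.41, 1.73 and 2.27 at 120 to 168 h, a difference of -1.67 (adjusted p = 0.0688). RPN10 (-1.74) and UMP1, an assembly factor (-1.50), missed the threshold as well. Of 10 histone genes 7 were lower and 1 fell, against 52.3% and 2.43% of all rows, with a median of -0.84 (-0.41 quantile normalized). The 1 that fell was HHT1, at -2.38 (-1.27 quantile normalized).

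Genes of stress, storage and resting gave 0 calls. Heat shock genes had a median of -0.45 median centred and -0.04 quantile normalized, with 31 and 22 of 38 lower. Glycogen and trehalose genes stood at -0.56 and -0.01, and stationary phase genes at -0.71 and -0.24. Without the 240 h array the median-centred medians of these 3 lists were -0.27, -0.18 and -0.46, and those of the last 2 were -0.35 and -0.47 without the 168 h array. HSP26, a small heat shock protein, had 2.97, 1.37 and 2.97 at 192, 240 and 264 h, against 3.40, 4.15 and 5.24 at 120, 144 and 168 h, a difference of -1.83 (limma adjusted p = 0.0930) and -0.03 quantile normalized (0.333 there without the 240 h array). TPS1, of trehalose synthesis, differed by -1.59, GSY2, a glycogen synthase, by -1.25, NTH1, the trehalase, by -1.23 and the vacuolar protease PEP4 by -1.55. Quantile normalized, these 4 stood at -0.31 (TPS1), -0.70 (GSY2), -0.93 (NTH1) and -0.70 (PEP4). ACT1, actin, often a reference gene, differed by -0.50, and by 0.13 in the values as deposited, where the median of all genes was itself higher by 0.58. Of 40 measured genes of brewing interest 8 fell (CTT1, ERG1, ERG11, FBA1, MAL32, OLE1, PDC1 and TDH3), 0 rose, and of the rest 25 had negative and 7 positive differences.

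**Figure D4:**
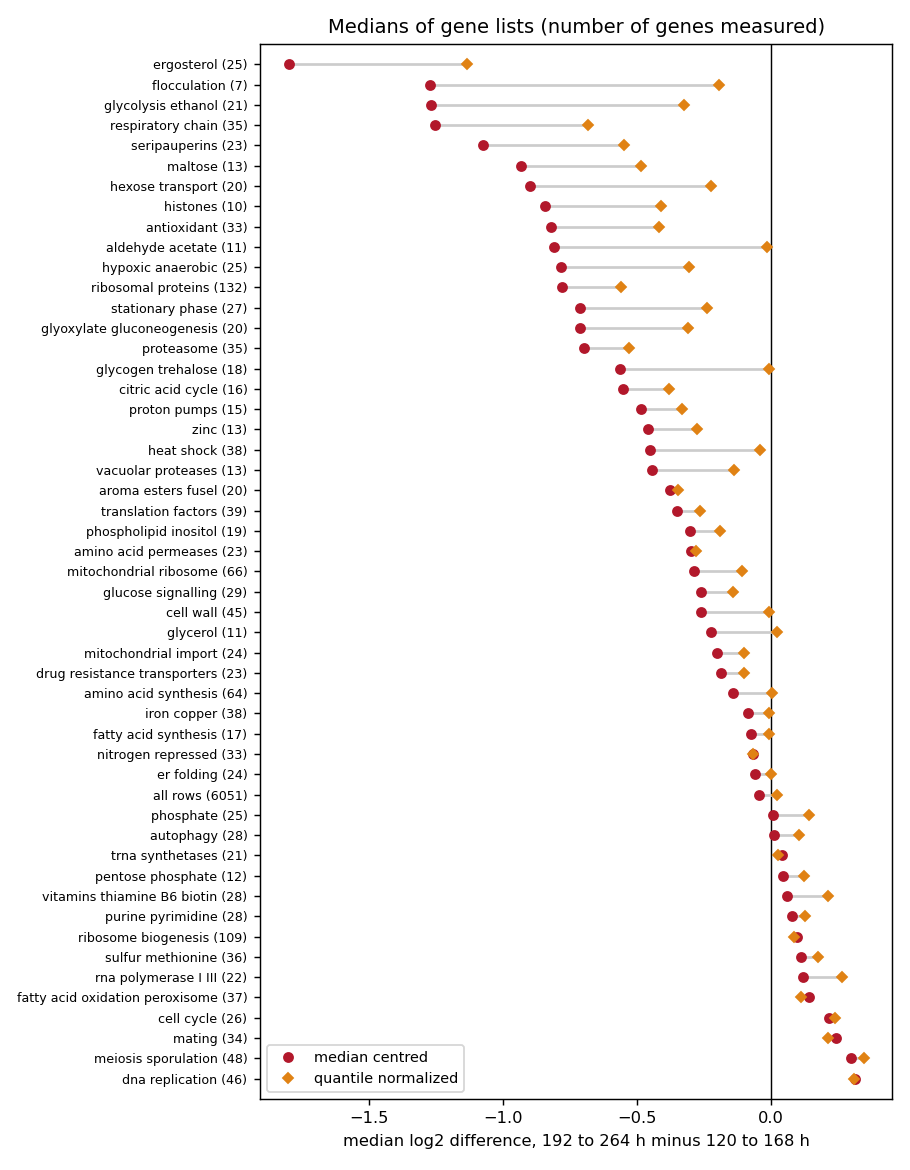
Median log2 difference (192 to 264 h minus 120 to 168 h) of 50 gene lists and of all rows, median centred (circles) and quantile normalized (diamonds), with the number of genes measured. Ergosterol genes lie lowest in both scalings, at -1.80 and -1.13.

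Genes that rose were dim before. All 8 named ones had a mean level below the array median at 120 to 168 h, where the background of the arrays is unknown. In 7 of the 8, all but SPO22, at least 1 array lay at or below its 5th percentile, so no fold is given. YPL150W had 1.23, 0.99 and -0.26 at 192, 240 and 264 h, against -1.14, -0.97 and -1.55 at 120, 144 and 168 h. It rose (log2 difference 1.88, SE 0.44; limma adjusted p = 0.0448; 2.11 quantile normalized). REV3, the catalytic subunit of a DNA polymerase that copies damaged templates, had 0.63, 0.59 and 0.09, against -1.25, -1.04 and -1.65, and rose (log2 difference 1.75, SE 0.37; adjusted p = 0.0367; 1.83 quantile normalized). The windows of both genes were apart.

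SPO22, a meiosis-specific gene, had 0.53, 0.86 and 0.76 at 192 to 264 h, against -0.96, -0.52 and -0.92 at 120 to 168 h, and rose by 1.52 log2 units (adjusted p = 0.0448; 1.67 quantile normalized). CRR1, known in spore wall assembly, rose by 1.53. FAB1, a lipid kinase of the vacuole, rose by 1.62, DNF3, a phospholipid flippase, by 1.60, and YNL034W and YOL014W by 1.72 and 1.55. NAT4, ARL3, YGL138C and YOR105W had differences of 1.76, 1.68, 1.67 and 1.66 without passing, and were taken because their windows did not overlap in either scaling, as upward in 8.23% of all rows. Of the 9 rows that rose, 4 had every late array above the other 9 arrays of the series, as had 1.31% of all rows.

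**Figure D5:**
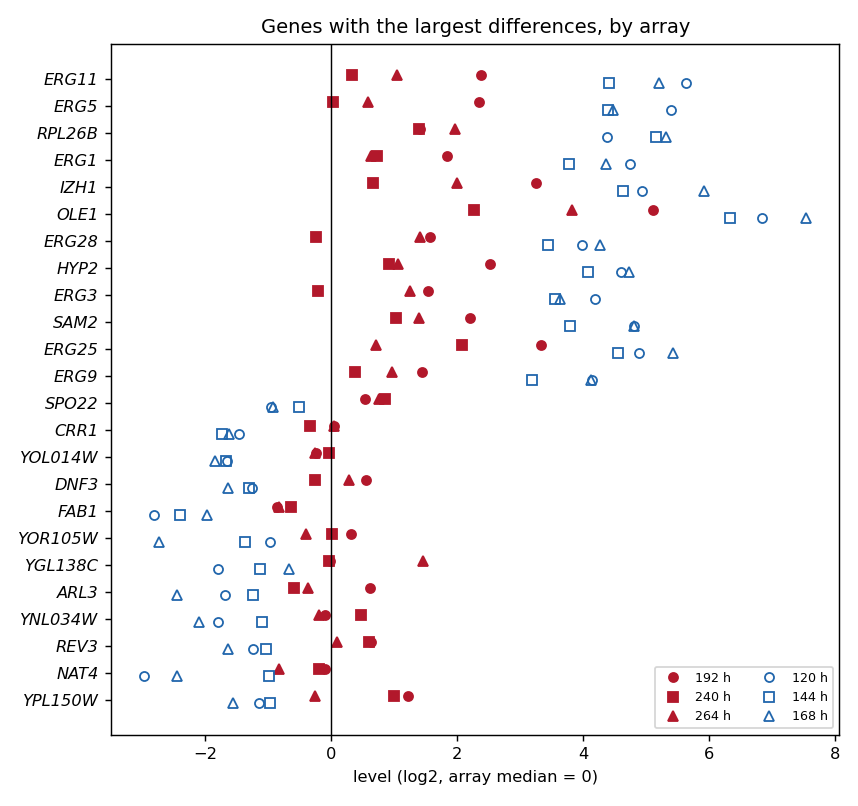
Level on each array (log2, array median at 0) of the 12 genes with the largest differences in each direction, with 192, 240 and 264 h as filled red markers and 120, 144 and 168 h as open blue markers. The 12 upper genes fell, and of the 12 lower ones 8 rose and 4 did not pass.

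Meiosis, mating and DNA replication lists had small positive medians. Of 48 meiosis and sporulation genes 36 were higher, with a median of 0.30 (0.35 quantile normalized). Of all 6051 rows 2888 were higher. SPO22 rose and DMC1, the meiotic recombinase, fell by 1.55. MER1, a meiotic splicing factor, differed by 1.09 without passing. Mating genes had 22 of 34 higher and a median of 0.24, with PRM1 at 1.11, and DNA replication genes 29 of 46 and 0.31, with RFC5 at 1.03, and neither list held a call. The median mean level was -0.20 for the meiosis list, -0.17 for mating and -0.23 for DNA replication. Rows with a mean level between -1 and 0 had a median difference of 0.26 (0.20 quantile normalized), with 864 of 2764 lower. In these lists, in the same order, 12 of 48, 12 of 34 and 17 of 46 were lower.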

How the data were processed

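Whole-number linear intensities for 6084 probes on 12 arrays were used as deposited; scanner, background correction and scaling by the authors are not given in the sources used here. Gene names came from the platform annotation: 5523 had 1 symbol and 561 none, and the probes of 32 symbols were averaged. The 3 intensities of 0, all at 168 h, were treated as missing, and a row needed 2 arrays in each window. Array medians were 1915, 1672 and 2579.5 units at 192, 240 and 264 h, and 3666, 810 and 762 at 120, 144 and 168 h. The number of arrays limits the precision, and signal over background is unknown. Values were log2 transformed, centred on each array's median and fitted on the 6 arrays with limma 3.58.1 (lmFit, eBayes, two-sided, Benjamini-Hochberg over all 6051 rows, 4 residual and 8.68 prior degrees of freedom) in R 4.3.3. The fits were run on simulated data with independent noise of the same spread on every array. Those data do not hold the narrower late arrays, so they are no check of the calls above.

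Named genes were the 12 largest differences each way, taken among those past the threshold with signal above the 5th percentile in the brighter window and filled up from those whose windows did not overlap in either scaling, together with the 3 largest in each of 50 lists and 41 fixed brewing genes, of which 40 were measured. The text gives a selection of these, chosen with the values known, and further called or pathway members added after the values were seen. The comparison and the lists were chosen with earlier results of these data known. No genome or sequence table was used, so no sequences are printed and promoter motifs were not searched. Alternatives were quantile normalization, values as deposited, equal median absolute deviations, normexp background correction (offset 50), a floor at the 5th percentile, all 12 arrays, leaving out the dimmest 25% of genes, other variance models, time as a line, and arrays left out. Figures were drawn with matplotlib 3.10.9.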

Additional observations from a re-analysis of the deposited data

How the results depend on the processing

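The 156 calls became 0 with quantile normalization, values as deposited, equal median absolute deviations, normexp correction, a variance trend with robust prior, no moderation, or both the 168 and 240 h arrays left out. They became 3 with time as a line, 21 with all 12 arrays (all among the 156) and 270 without the dimmest 25% of genes. With single arrays left out, quantile normalized or not, they ranged from 0 to 364. The cause was not tested. The lists at least 0.5 log2 units below all rows, 17, became 6 with quantile normalization, 8 with equal deviations and 10 without both arrays, and ranged from 4 to 21 with single arrays left out. The 24 largest differences kept their direction in every alternative that measured them except ERG25, with 15 of them tested without the dimmest 25%. Their windows did not overlap in median-centred values, so leaving arrays out there could not change their direction. NAT4, ARL3, YGL138C and YOR105W were also chosen for windows that did not overlap after quantile normalization. The 3 calls per day became 0 with quantile normalization, values as deposited, a variance trend, no moderation or without both arrays, 1 with normexp and 5 without dim genes or with a floor, and ranged from 0 to 32 with single arrays left out, or to 194 when quantile normalized as well. Of single genes, ACT1 reversed in the values as deposited, at 0.13. Quantile normalized without 264 h, ERG25, TEF2 and CYC7 stood at 0.061, 0.031 and 0.020. Without 240 h, HSP26, TPS1 and PEP4 did at 0.333, 0.048 and 0.183, and HSP26 stood at 0.026 without 144 h and 0.139 without 168 h. Quantile normalization with an array left out, and the alternatives for the change per day, were chosen after seeing the data. No paired analysis was possible because each time has 1 array and the labels give no replicate numbers. The 3 arrays per window and the unknown background limit what can be read from dim genes.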
